A study of Mus musculus with 14 samples.

Results

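Klrg1, Il1rl1, Il10ra and Cd83 encode 4 cell-surface proteins. They are grouped here as receptors of regulatory T cells (Tregs) that have settled in tissues or reached an effector state. Tregs are CD4 T cells that express Foxp3 and hold back immune responses. The genes were taken as a list of names and are 4 of the 25124 genes in the deposited table. All 4 were among the 13434 genes kept by a filter on low counts. They were read in 14 RNA-seq libraries of T cells sorted from subcutaneous AE17-OVA tumours, a mouse mesothelioma that carries the model antigen ovalbumin. The hosts were labelled as female C57BL/6 mice aged 8 to 12 weeks. Every group, isotype controls included, carried the genotype GATIR Foxp3Cre-rfp Gata3Cre-yfp, so no group had unmodified Foxp3 and Gata3 loci. An antibody against PD-L1 (clone MIH5, 200 µg) or an isotype antibody (clone 2A3) was given into the peritoneum on day 10, and tumours were harvested on day 13. PD-L1 binds PD-1, an inhibitory receptor of T cells. Sorting on PD-1, CD25, CD4 and the reporter gave 3 populations. CD4 T cells outside the Treg gate gave 2 isotype and 3 treated libraries. From Tregs without PD-1 there were 2 of each, and from PD-1+ Tregs 2 isotype libraries were set against 3 treated. Replicates are described as biological by the submitters, but no animal or pool is named for a library, so p-values here measure only how these libraries spread.

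KLRG1 is an inhibitory lectin-like receptor that binds cadherins and marks antigen-experienced T cells and terminally differentiated Tregs. The Il1rl1 gene encodes ST2, which pairs with the shared chain IL1RAP to bind the alarmin IL-33 and signals through MYD88. Tregs of skin, gut, fat and tumours are known to carry ST2 together with KLRG1 and the transcription factor GATA3. Il10ra encodes the ligand-binding chain of the receptor for IL-10, which pairs with IL10RB and signals through JAK1, TYK2 and STAT3. CD83 is an activation glycoprotein of mature dendritic cells, B cells and activated T cells and Tregs. It opposes the ubiquitin ligase MARCH1, which removes MHC class II and CD86 from the surface.

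The libraries held 10638848 to 15030804 counts. Genes with any count numbered 12119 to 14535 in CD4 T cells, 9662 to 11312 in PD-1+ Tregs and 8027 to 8801 in PD-1- Tregs. Transcripts of Y-linked genes were present at 2767, 2966 and 2929 counts in 3 treated libraries, the third of the CD4 T cells, the second of the PD-1- Tregs and the third of the PD-1+ Tregs, and at 0 or 1 count in the other 11. The hosts are labelled female, and these 3 libraries share the number 3 in a bracketed part of their titles, so results that rest on them are given with and without them and they are called the number-3 libraries. Foxp3 stood at 15.9 to 156 CPM (counts per 1000000, scaled by TMM) in PD-1+ Tregs and overlapped the CD4 T cells at 16.3 to 55.0, whereas Il2ra, which encodes CD25, stood at 192 to 662 in all Tregs and 13.4 to 79.5 in CD4 T cells. Replicates scattered most in PD-1- Tregs. Among 5388 genes as abundant as the 4 described here, replicates differed by over 10-fold (CPM + 1) for 0% and 0.186% in the isotype and treated CD4 groups, 3.17% and 12.5% in PD-1+ Tregs, and 18.6% and 21.9% in PD-1- Tregs.

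Per length of transcript, Cd83 was the most abundant of the 4 genes, and pooled over all libraries Il1rl1 was the least. In the authors' RPKM (reads per kilobase, scaled to depth) the mean over 14 libraries was 179 ± 132 for Cd83, 58.5 ± 56.0 for Klrg1, 11.0 ± 11.7 for Il10ra and 5.09 ± 4.78 for Il1rl1 (SD, n = 14). Within CD4 T cells the order was the same, from 66.6 ± 17.1 for Cd83 through 31.0 ± 27.2 and 12.8 ± 5.07 to 2.68 ± 1.31 (n = 5). The same order held in PD-1+ Tregs, at 309 ± 111, 106.8 ± 46.2, 8.87 ± 4.09 and 7.37 ± 4.57 RPKM (n = 5), where Il10ra and Il1rl1 differed by less than their spread. It did not hold in isotype PD-1- Tregs, where Il1rl1, at 2.54 ± 3.60 RPKM, stood above Klrg1 at 0.699 ± 0.988 and Il10ra at 0.022 ± 0.031 (n = 2). From here on levels are CPM, which compares 1 gene across libraries.

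**Figure D1:**
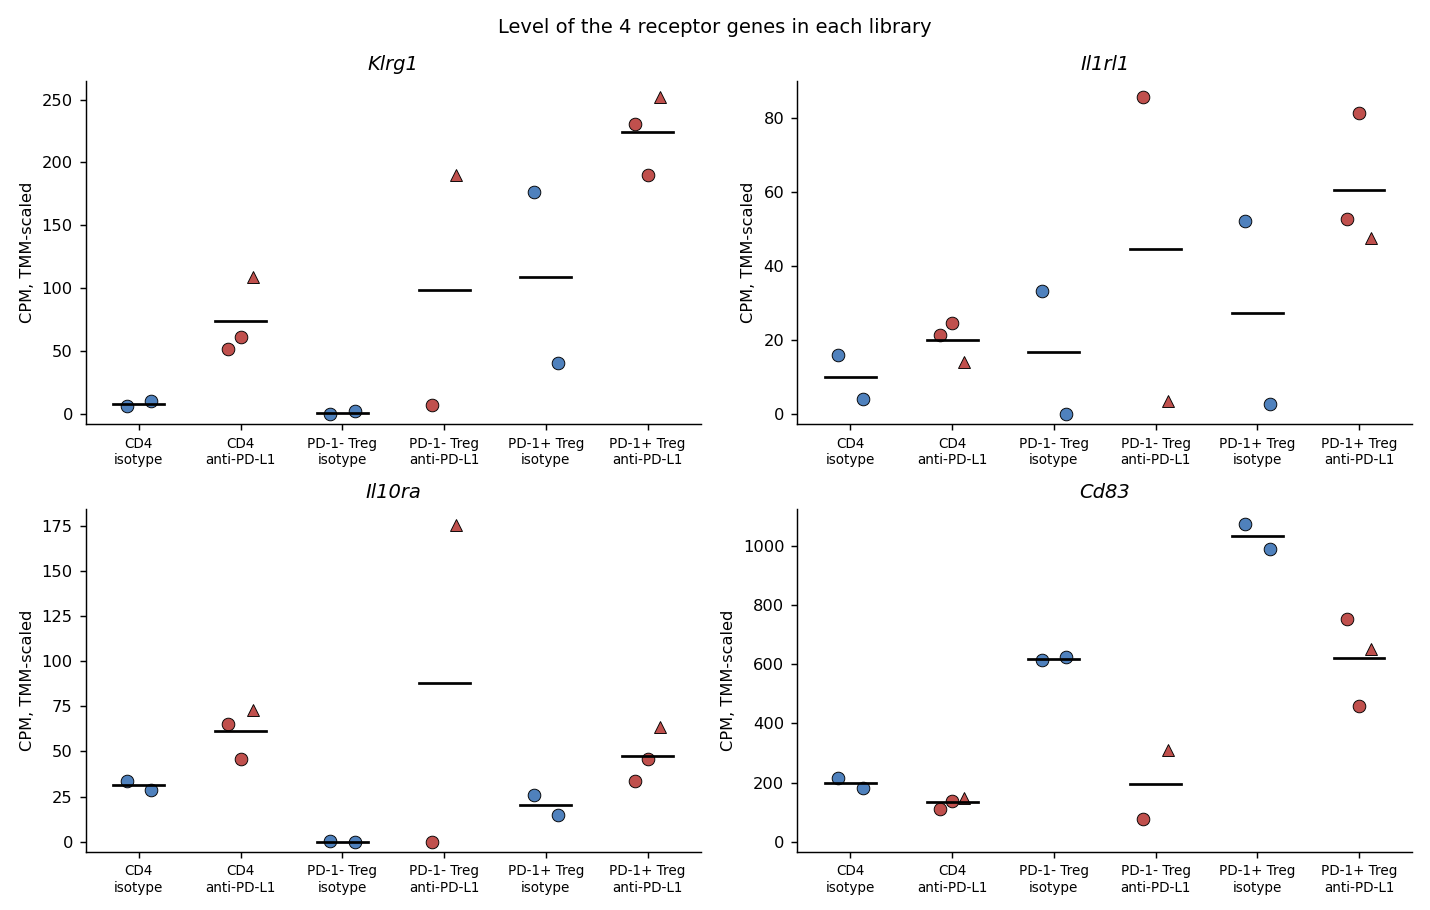
Level of each gene (y axis, CPM scaled by TMM, from 0) in the 14 libraries by group (x axis), with isotype libraries in blue, treated ones in red, the 3 number-3 libraries as triangles and the group mean as a bar. All treated Klrg1 points lie above, and all treated Cd83 points below, the isotype points of the same population.

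Klrg1 transcripts were more abundant in every treated library than in any isotype library of the same population. In CD4 T cells the isotype libraries stood at 6.51 and 10.1 CPM and the treated ones at 52.0, 61.0 and 109. In PD-1- Tregs they stood at 0 and 2.35 against 7.25 and 190.0. In PD-1+ Tregs they stood at 177 and 41.0 against 230.3, 189.8 and 252. The groups were far apart in CD4 T cells, whereas in PD-1- Tregs 1 treated library carried most of the difference and in PD-1+ Tregs the highest isotype library came close to the lowest treated one. Treated libraries were higher without overlap for 12.5% of all genes among CD4 T cells, 12.5% among PD-1- Tregs and 7.69% among PD-1+ Tregs, and in all 3 populations for 84 of 13434 genes (0.625%). The same order in all 3 populations held without the number-3 libraries, where 1.85% of genes had it, and with RPKM or RLE scaling. Without TMM the PD-1+ groups overlapped, with or without the number-3 libraries, since the highest isotype library was then at 182 and the lowest treated one at 179 CPM.

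By edgeR's quasi-likelihood test with Benjamini-Hochberg adjustment over all genes, Klrg1 did not pass 0.05 for treatment in any population, nor did the other 3 genes. In the background 1 gene (0.00744%) passed for treatment of CD4 T cells, 358 (2.66%) for PD-1- Tregs, 2 (0.0149%) for PD-1+ Tregs and 165 (1.23%) averaged over the populations. At an unadjusted p below 0.05 the 4 genes gave 1 for CD4 T cells (Klrg1), 3 for PD-1- Tregs and 3 on average (Klrg1, Il10ra and Cd83), and 0 for PD-1+ Tregs. Of all 13434 genes 155, 2695, 1990 and 1083 had such a p in the same order. DESeq2 called 0, 3, 3 and 0 in the same order, where it called 54, 2755, 1898 and 618 of all genes. Limma-voom called Cd83 alone in the last 3, where it called 686, 353 and 149 of all genes. The group means of Klrg1 were 8.32 ± 2.57 and 74.0 ± 30.7 CPM in CD4 T cells (SD, n = 2 and 3), a log2 change of 3.15 ± 1.42 (SE, adjusted p = 1, unadjusted 0.0462). The change was 6.37 ± 1.73 in PD-1- Tregs (adjusted p = 0.0737), 1.04 ± 1.28 in PD-1+ Tregs (adjusted p = 1) and 3.52 ± 0.85 averaged over the populations (adjusted p = 0.0746). With library quality weights in limma-voom the CD4 change reached an adjusted p of 0.0496, and DESeq2 called the PD-1- and the averaged change. Without the number-3 libraries the averaged change was 2.08 and the PD-1- change 2.59.

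Under isotype Klrg1 was most abundant in PD-1+ Tregs. Its mean was 109 ± 96.1 CPM there, against 8.32 for CD4 T cells and 1.18 ± 1.66 for PD-1- Tregs (n = 2 each), and the lowest PD-1+ library (41.0) lay above every CD4 and PD-1- library (highest 10.1). Under treatment the PD-1+ libraries, at 189.8 to 252 CPM, all lay above the CD4 libraries. They overlapped the PD-1- libraries through 1 PD-1- library at 190.0. The shares of all genes with these orders were not counted, so how unusual they are cannot be read. With isotype and treated libraries pooled, PD-1+ Tregs overlapped both CD4 T cells and PD-1- Tregs. Over both treatments PD-1+ Tregs exceeded PD-1- Tregs by 3.85 ± 1.07 on the log2 scale (adjusted p = 0.0629) and CD4 T cells by 2.65 ± 0.94 (adjusted p = 0.326), while the difference of PD-1- Tregs from CD4 T cells was -1.20 ± 0.96 (adjusted p = 0.477). None passed the threshold in edgeR. DESeq2 called both PD-1+ differences, among 2963 and 741 of all genes.

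The deposited table held 6 genes of KLRG1's cadherin ligands and signalling phosphatases, 4 of them abundant enough to test, and none passed in any comparison. The E-cadherin gene Cdh1 ran from 0 to 89.2 CPM and was at 0 in both isotype PD-1+ libraries. The phosphatase genes Ptpn6 (SHP-1) and Inpp5d (SHIP-1), which inhibitory receptors recruit, were present throughout, at 352 ± 142 and 117 ± 59.2 CPM (n = 14). In CD4 T cells Ptpn6 and the other listed phosphatase gene, Ptpn11, were lower under treatment without overlap, as were 15.5% of all genes. Both overlapped in the Tregs, and Inpp5d overlapped in every population. CD8 T and NK cells are another common source of Klrg1. Their 8 markers summed to 64.0 to 79.2 CPM in CD4 T cells, with 64.0 to 78.7 under treatment and 70.9 and 79.2 under isotype. In PD-1- Tregs they summed to 10.1 and 20.1 under isotype and to 76.7 and 0 under treatment, and all 8 were at 0 in the library with 190.0 CPM of Klrg1. In PD-1+ Tregs the sums were 47.5 to 96.4 CPM. The part of these cells in the Klrg1 values was not tested. The 6 Treg markers (Foxp3, Il2ra, Ikzf2, Ikzf4, Ctla4 and Tnfrsf18) were higher as a sum in the same treated CD4 libraries. They summed to 1000 to 1415 CPM against 413 and 466, and Foxp3 and Il2ra were the smaller part of each sum. The part of Tregs in the CD4 values of Klrg1 and Il10ra was not tested. In bulk libraries more Klrg1+ cells and more Klrg1 RNA per cell cannot be told apart.

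RefSeq's promoter table lists 2 transcription starts of Il1rl1 (GRCm38.p6, the build the submitters name as mm10). RefSeq's span of the gene begins further upstream, at chr1:40404864, and sequence from there is not shown. The 250 bases before each of the 2 listed starts are shown because GATA3 is a known activator of this gene and both were measured here. Capitals mark the motif AGATAA or TGATAA on either strand (its reverse reads TTATCT or TTATCA). The first lies at chr1:40429320-40429569 (plus strand), with matches at -217 and -80 from the start, and the other at chr1:40439379-40439628 (plus strand), with 1 match at -103 on the minus strand.
Il1rl1 start 1: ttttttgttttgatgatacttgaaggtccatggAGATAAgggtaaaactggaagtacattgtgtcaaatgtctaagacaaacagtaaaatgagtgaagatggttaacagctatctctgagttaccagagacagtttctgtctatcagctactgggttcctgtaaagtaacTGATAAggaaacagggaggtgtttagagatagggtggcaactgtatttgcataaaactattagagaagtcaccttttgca
Il1rl1 start 2: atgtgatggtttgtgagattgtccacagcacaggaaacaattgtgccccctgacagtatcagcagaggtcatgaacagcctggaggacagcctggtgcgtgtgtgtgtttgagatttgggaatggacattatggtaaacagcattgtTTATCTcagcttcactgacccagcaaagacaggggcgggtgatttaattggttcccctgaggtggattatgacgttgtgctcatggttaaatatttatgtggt
Of all 32851 promoters of that table, 16.6% hold at least 1 match and 2.718% hold 2 or more. A match is a description of the letters, not a binding site. Which start was used, and so how much of the counts belongs to the soluble or the membrane form of ST2, cannot be read from counts summed over the gene.

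Il1rl1 was low and uneven, and no comparison of it passed the threshold. The isotype CD4 libraries stood at 15.9 and 4.05 CPM and the treated ones at 21.4, 24.6 and 14.2. PD-1- Tregs stood at 33.4 and 0 against 85.8 and 3.62. PD-1+ Tregs stood at 52.1 and 2.60 against 52.8, 81.5 and 47.7. The groups overlapped in all 3 populations, and in both Treg groups under isotype and in treated PD-1- Tregs the replicates lay over 10-fold apart. The log2 change with treatment was 1.01 ± 1.99 for CD4 T cells, 1.42 ± 2.15 for PD-1- Tregs and 1.15 ± 2.00 for PD-1+ Tregs, and 1.19 ± 1.18 averaged (edgeR adjusted p = 0.879). The population means were 16.01 ± 7.88 CPM for CD4 T cells (n = 5), 30.7 ± 39.7 for PD-1- Tregs (n = 4) and 47.4 ± 28.4 for PD-1+ Tregs (n = 5), and neighbours in that order differed by less than their spread. Against CD4 T cells the log2 difference was 1.53 ± 1.39 in PD-1+ Tregs (adjusted p = 0.890) and 0.95 ± 1.43 in PD-1- Tregs (adjusted p = 0.779). The latter turned negative in limma-voom (-1.36).

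For Il1rl1 the number-3 libraries were the lowest treated ones in each of the 3 populations, as for 568 of 13434 genes (4.23%). Without them Il1rl1 was higher in treated libraries without overlap in all 3 populations, as were 1.85% of genes. The margin was 52.8 against 52.1 CPM in PD-1+ Tregs, and 1 treated PD-1- library was left. The PD-1+ groups then overlapped without TMM (50.6 against 53.6 CPM) and in RPKM (7.91 against 8.52), so that this order held with TMM and RLE scaling but not with the other 2 scalings. Klrg1 and Il10ra showed the reverse order and were highest in the number-3 library of each treated group, as for 526 genes (3.92%). Klrg1, for example, stood at 109, 190.0 and 252 CPM in those libraries. Cd83 was highest in the number-3 library of the CD4 T cells and of the PD-1- Tregs and intermediate in that of the PD-1+ Tregs.

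Il1rap, which encodes the chain that ST2 needs to signal, was read in every PD-1+ Treg library and in no PD-1- one. It had 0 counts in all 4 PD-1- Treg libraries, and 8.33 to 29.4 CPM in CD4 T cells and 17.7 to 81.3 in PD-1+ Tregs. Against a floor of 3 counts per library the mean level was at least 141-fold lower in PD-1- than in PD-1+ Tregs (edgeR adjusted p = 0.00559) and at least 73.4-fold lower than in CD4 T cells (adjusted p = 0.00868). These bounds cover counting error only. PD-1- Treg libraries also detected the fewest genes, and of 3338 genes with counts in each of the other 10 libraries at a mean of up to 50 CPM, 91 (2.73%) were at 0 in all 4 of them. In the 3 PD-1- libraries with Il1rl1 counts, therefore, 1 chain of the receptor was read and the other was not. Macrophage and monocyte markers were also lowest in PD-1- Tregs, summing to 314 to 816 CPM. Their sums were 1907 to 5162 in CD4 T cells and 3300 to 5833 in PD-1+ Tregs. The part of such cells in the Il1rap values was not tested.

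**Figure D2:**
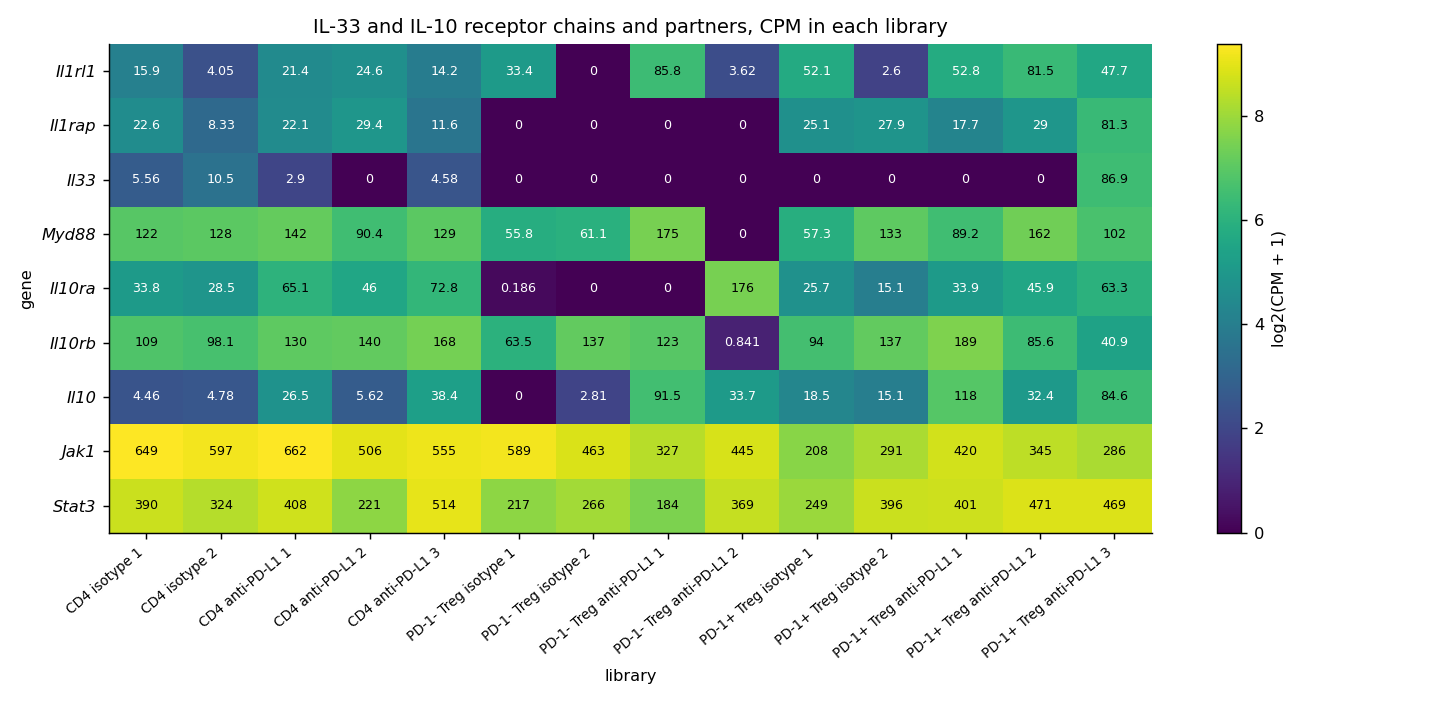
CPM in each library (x axis, by group and replicate) of the IL-33 and IL-10 receptor chains, their ligands and signalling partners (y axis), with colour giving log2(CPM + 1) and the number in each cell the CPM. The Il1rap row is at 0 in all 4 PD-1- Treg libraries, and the Il10ra row holds 176 in 1 of them.

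Of the 11 genes listed for the IL-33 pathway, 4 were higher with treatment in CD4 T cells (median log2 change -0.05, all genes -0.01), 7 in PD-1- Tregs (0.78, all genes 0.00) and 7 in PD-1+ Tregs (0.22, all genes 0.00). None passed the threshold in edgeR, with 0, 2 and 0 at an unadjusted p below 0.05, against 155, 2695 and 1083 of all 13434 genes. Il1rap was the single pathway gene called between populations. The ligand gene Il33 was at 0 in all PD-1- Treg libraries and in 4 of 5 PD-1+ libraries, and stood at 86.9 CPM in the number-3 PD-1+ library. Myd88, the adaptor, stood at 103 ± 47.8 CPM (n = 14) and was at 0 in the second treated PD-1- library. Gata3 stood at 119 ± 49.6 CPM among CD4 T cells, 179 ± 70.4 among PD-1- Tregs and 218 ± 75.7 among PD-1+ Tregs, with no difference past the threshold. By treatment it was higher without overlap in CD4 T cells (97.1 and 73.0 against 113, 203 and 107) and PD-1+ Tregs (180 and 104 against 253, 256 and 294), but lower without overlap in PD-1- Tregs (193 and 270 against 149 and 105). The same held for 12.5%, 7.69% and 14% of all genes in that order. Mast cells and type 2 innate lymphoid cells also carry ST2. Of the 8 mast cell and basophil markers Fcer1a, Ms4a2 and Mcpt4 were at 0 in all 14 libraries. Cpa3, Cma1, Tpsb2 and Mcpt8 reached 10.95, 4.58, 4.46 and 0.45 CPM, and in CD4 T cells the sum ran from 6.73 to 31.7 CPM. The sum reached at most 56.8 CPM, which was Kit alone, in the first treated PD-1- library, where the other 7 were at 0. The 7 lymphoid cell markers summed to 126 to 511 CPM. Il5, Il13 and Klf5 reached at most 2.11, 1.33 and 0.658 CPM, whereas Il17rb, Hpgds and Il9r reached 47.2, 45.2 and 31.7, and Bcl11b, which T cells express too, 476. Both sums were highest in the first treated PD-1- library, which also had the highest Il1rl1. In that library 5 of the 7 lymphoid cell markers were at 0, and Bcl11b made up most of their sum. The part of mast cells and innate lymphoid cells in the Il1rl1 values was not tested.

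Il10ra was higher in treated than in isotype libraries without overlap in PD-1+ Tregs and CD4 T cells, as were 7.69% and 12.5% of all genes. In isotype PD-1- Tregs it was all but unread, with 1 treated library high. Isotype CD4 T cells stood at 33.8 and 28.5 CPM and treated ones at 65.1, 46.0 and 72.8. PD-1+ Tregs stood at 25.7 and 15.1 against 33.9, 45.9 and 63.3. PD-1- Tregs stood at 0.186 and 0 against 0 and 175.7. The first 2 populations differed by about the same amount, whereas all 2088 treated counts in PD-1- Tregs came from the number-3 library, against 2 counts under isotype. The log2 change was 0.98 ± 1.79 for CD4 T cells and 1.22 ± 1.81 for PD-1+ Tregs (edgeR adjusted p = 1 for each). In PD-1- Tregs the ratio of pooled counts was 895 with a 95% counting interval of 248 to 7397 (edgeR adjusted p = 0.0931). Without the number-3 libraries 0 treated counts stood against 2 isotype counts, so no change could be read there, nor in the average over populations, which with them was 3.98 ± 1.24 (adjusted p = 0.167). The differences between populations did not pass in edgeR either. They were -0.49 for PD-1+ Tregs against CD4 T cells (adjusted p = 1.00) and 3.38 ± 1.51 for PD-1+ against PD-1- Tregs (0.208). For PD-1- Tregs against CD4 T cells the difference was -3.87 ± 1.54 (0.133). DESeq2 called the last 2 (adjusted p = 0.0377 and 0.0150), among 2963 and 3134 of all genes. Limma-voom called them too (0.0299 and 0.00757), among 1332 and 3352 of all genes.

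Il10, the ligand of this receptor, was higher in treated libraries without overlap in all 3 populations, as were 0.625% of all genes. It stood at 4.46 and 4.78 CPM in isotype CD4 T cells and at 26.5, 5.62 and 38.4 in treated ones. PD-1- Tregs stood at 0 and 2.81 against 91.5 and 33.7, and PD-1+ Tregs at 18.5 and 15.1 against 118, 32.4 and 84.6. The margin was narrow in the second treated CD4 library, and the averaged log2 change was 3.34 ± 0.99 (edgeR adjusted p = 0.148). This was 1 of 8 genes listed for the IL-10 pathway. The partner chain Il10rb was higher without overlap in CD4 T cells, as were 12.5% of all genes, at 109 and 98.1 CPM against 130, 140 and 168. In both Treg types it overlapped. Jak1, the kinase on the IL-10 receptor, fell in PD-1+ Tregs against CD4 T cells by 1.02 ± 0.17 on the log2 scale (adjusted p = 0.0263), from 594 ± 64.9 to 310 ± 78.4 CPM (n = 5 each), and was the single call of the list in any comparison.

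Cd83 was lower in every treated library than in any isotype library of the same population. Isotype CD4 T cells stood at 217 and 183 CPM, and treated ones at 112, 139 and 149. PD-1- Tregs stood at 614.5 and 622.7 against 76.2 and 311. PD-1+ Tregs stood at 1076 and 988 against 753, 459 and 651. In both Treg types the isotype replicates lay close together, and the treated ones spread more. In CD4 T cells the SD was 24.1 CPM under isotype and 19.3 under treatment. Treated libraries were lower without overlap for 15.5% of all genes among CD4 T cells, 14% among PD-1- Tregs and 11.5% among PD-1+ Tregs, and in all 3 for 118 of 13434 genes (0.878%). The pattern held without TMM, with RLE scaling, with RPKM and without the number-3 libraries.

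The isotype mean of Cd83 was 1.499-fold the treated mean in CD4 T cells (200.0 ± 24.1 and 133 ± 19.3 CPM), 3.20-fold in PD-1- Tregs (619 ± 5.86 and 193 ± 166) and 1.66-fold in PD-1+ Tregs (1032 ± 61.6 and 621 ± 150). The log2 changes were -0.58 ± 0.42 (edgeR adjusted p = 1), -1.68 ± 0.48 (0.0856) and -0.73 ± 0.42 (0.689), and -0.998 ± 0.25 averaged over the populations (0.0867), so that none passed. The PD-1- change rested on which treated library was kept. It was -0.998 without the first and -3.04 without the second. Without all number-3 libraries the change was -3.05 in PD-1- Tregs and -1.51 on average. Each of these fits had 1 treated PD-1- library left. Over all alternatives the adjusted p of the PD-1- change ran from 0.00114 to 0.715. Limma-voom called Cd83 in PD-1- Tregs, PD-1+ Tregs and on average, and DESeq2 in PD-1- Tregs and on average.

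Between populations Cd83 gave the single call among the 4 genes. It rose in PD-1+ Tregs against CD4 T cells by 2.29 ± 0.32 on the log2 scale (edgeR adjusted p = 0.00799), from 160 ± 40.8 to 785 ± 251 CPM (SD, n = 5 each), where 0.35% of genes passed. Every PD-1+ library lay above every CD4 library, as for 1.71% of genes. The call was lost without the first or the second isotype CD4 library (adjusted p = 0.0795 and 0.104) or the first isotype PD-1+ library (0.0595), and stood in the other 22 of 25 alternatives. PD-1- Tregs lay between, at 406 ± 263 CPM (n = 4). They were 1.08 ± 0.32 above CD4 T cells (adjusted p = 0.0730, 3.6% of genes called) and 1.21 ± 0.32 below PD-1+ Tregs (adjusted p = 0.0562, 4.28% called). Under isotype the 3 populations did not overlap, and under treatment PD-1- Tregs overlapped CD4 T cells. The share of all genes with the isotype order was not counted, so how unusual it is cannot be read.

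Other cells that carry Cd83 and Il10ra left transcripts in these libraries. Macrophage and monocyte markers (11 genes) summed to 1907 to 5162 CPM in CD4 T cells, 314 to 816 in PD-1- Tregs and 3300 to 5833 in PD-1+ Tregs. The 14 genes of dendritic cells and MHC class II reached 15797 to 29022, 9054 to 16162 and 20228 to 50034 CPM. These sums were lowest in PD-1- Tregs, where the mean of Cd83 was 406 CPM against 160 in CD4 T cells. B cell markers (6 genes) moved in the same direction as Cd83 with treatment in CD4 T cells, from 186 and 211 to between 45.0 and 83.0 CPM, and in PD-1+ Tregs, from 205 and 368 to between 22.9 and 82.2. In PD-1- Tregs they stood at 96.3 and 80.5 under isotype and 304 and 42.0 under treatment. Dendritic cell and MHC class II genes moved with Cd83 in PD-1- Tregs, from 14760 and 16162 to 11319 and 9054 CPM, but overlapped between isotype and treated libraries in the other 2 populations. The part of these cells in the Cd83 and Il10ra values was not tested.

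Of 9 genes listed around CD83, covering the MARCH ligases, costimulatory ligands and NF-kappaB, none passed the threshold for treatment. Cd86, which CD83 protects, stood at 104 ± 58.5 CPM (n = 14). Under treatment it was higher without overlap in CD4 T cells, as were 12.5% of all genes, at 47.5 and 49.2 CPM against 71.3 to 97.9, opposite to Cd83. March1 was at 0 in all 4 PD-1- Treg libraries, where the macrophage and monocyte sums were lowest too. The part of those cells in the March1 values was not tested. Nfkbia, an inhibitor and target of NF-kappaB, rose in PD-1- Tregs against CD4 T cells by 0.56 ± 0.12 (adjusted p = 0.0308) and was the single call of the list.

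**Figure D3:**
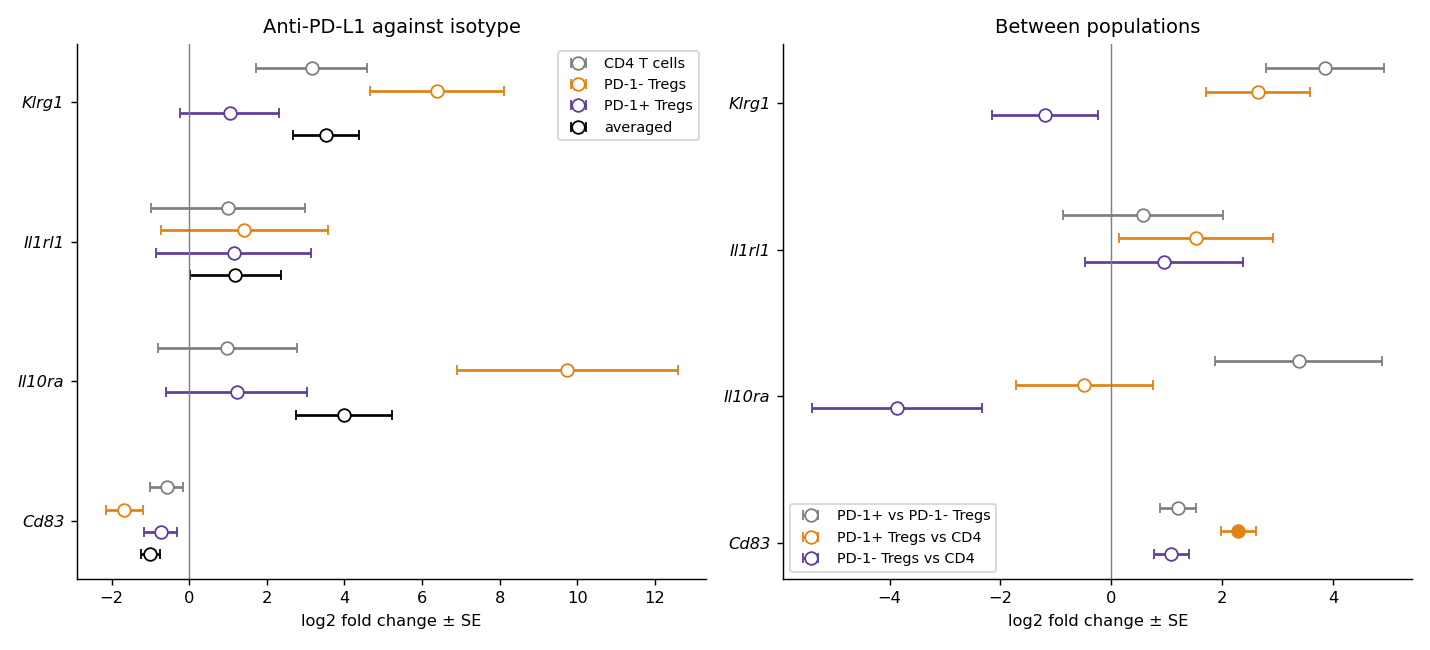
Log2 fold change ± SE (x axis, edgeR) of the 4 genes (y axis), for anti-PD-L1 against isotype in each population and averaged (left) and between populations (right), with filled points for adjusted p below 0.05. The filled point is Cd83 in PD-1+ Tregs against CD4 T cells, at 2.29, and the Il10ra point of PD-1- Tregs rests on 2 isotype counts.

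No treatment change of the 4 genes differed between populations past the threshold in edgeR with all libraries. For Klrg1 the log2 change in PD-1- Tregs minus that in CD4 T cells was 3.22 ± 1.89 (edgeR adjusted p = 0.481, 0.975% of genes called), and the change in PD-1+ minus that in PD-1- Tregs was -5.33 ± 1.94 (adjusted p = 0.201, 1.46% called). Without the number-3 libraries these were -0.16 and -1.66, and DESeq2 called the second with them (adjusted p = 0.0220). For Cd83 the same differences were -1.09 ± 0.64 (edgeR adjusted p = 0.476) and 0.94 ± 0.63 (adjusted p = 0.562). Without the number-3 libraries they were -2.37 and 2.25, with 1 treated PD-1- library left. For Il10ra they were 8.77 ± 3.03 (edgeR adjusted p = 0.231) and -8.52 ± 3.01 (0.188), which DESeq2 called (0.00537 and 0.00673), and both rest on 2 isotype counts and 1 treated library of PD-1- Tregs. None of the 4 genes was called for the change in PD-1+ Tregs against that in CD4 T cells, where edgeR called 0% of genes (470 had an unadjusted p below 0.05), DESeq2 called 274 and limma-voom 0.

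The other genes of the tissue and effector Treg programme were taken as a list of 24, among them Ctla4 and Tnfrsf18, which also mark Tregs in general. The list was chosen with earlier results of these data known. Its counts beside all genes, here and in the next paragraph, are therefore a description and not a test. In CD4 T cells 21 of the 24 were higher under treatment (median log2 change 1.34, all genes -0.01), 19 of them without overlap, against 12.5% of all genes. EdgeR called 0 of the 24, and 9 had an unadjusted p below 0.05, against 155 of all 13434 genes. Leaving out the number-3 library, 19 still did not overlap, against 17.5% of all genes. Treg markers were higher under treatment in the same CD4 libraries. The summed markers given for Klrg1 share Ctla4 and Tnfrsf18 with this list. Of the markers outside the list, Foxp3 stood at 16.3 and 20.8 CPM against 27.9 to 55.0, and Il2ra at 13.4 and 13.8 against 39.1 to 79.5. The part of Tregs inside the CD4 gate was not tested.

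In the Tregs themselves 17 of the 24 were higher under treatment in PD-1- cells (median 0.58, all genes 0.00), 6 of them without overlap and 1 lower without overlap, against 12.5% and 14% of all genes. In PD-1+ cells 19 were higher (median 0.82, all genes 0.00), 11 without overlap and 2 lower without overlap, against 7.69% and 11.5% of all genes. In PD-1- Tregs 3 of the 24 rose (2.66% of all genes called), Id2 by 1.48 ± 0.27 (edgeR adjusted p = 0.0135), Tigit by 2.14 ± 0.34 (0.00684) and the opioid precursor gene Penk by 3.48 ± 0.73 (0.0251). In PD-1+ Tregs Penk was lower under treatment without overlap, at 397 and 342 against 335, 314 and 261 CPM. In PD-1+ Tregs 0 passed, and 6 had an unadjusted p below 0.05, against 1083 of all 13434 genes. Id2, Tigit, Icos and Fgl2 were higher without overlap in all 3 populations, as Klrg1 was and as for 0.625% of all genes. Averaged over the populations 4 of the 24 rose (1.23% of all genes called), the transcription regulator Id2 by 1.48 ± 0.15 (edgeR adjusted p = 0.000827), the inhibitory receptor Tigit by 1.73 ± 0.19 (0.00115), the costimulatory receptor Icos by 1.25 ± 0.18 (0.00797) and the TNF receptor Tnfrsf18 by 0.87 ± 0.19 (0.0479). Tigit, for example, stood at 85.2 and 81.4 CPM against 269, 241 and 405 in CD4 T cells and at 311 and 339 against 821, 603 and 781 in PD-1+ Tregs. Fgl2, a secreted suppressor of Tregs, did not pass (1.81 ± 0.80, adjusted p = 0.311). Against PD-1- Tregs, PD-1+ Tregs had 20 of the 24 higher (median 1.32, all genes 0.42) and 5 past the threshold (4.28% of all genes), Id2, Ccr8, Tnfrsf9, Tigit and Penk. Against CD4 T cells they had 22 higher (median 1.16, all genes -0.23) and 6 past it (0.35% of all genes), Ccr8, Tnfrsf4, Tnfrsf9, Tnfrsf18, Tigit and Ctla4. The last list holds the chemokine receptor CCR8, the TNF receptors OX40, 4-1BB and GITR and the inhibitory receptors TIGIT and CTLA-4. PD-1- Tregs had 10 of the 24 above CD4 T cells (median -0.35, all genes -0.94). Of the 24, Tnfrsf4, Tnfrsf18 and Ctla4 rose and Id2 fell, where 3.6% of all genes were called.

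**Figure D4:**
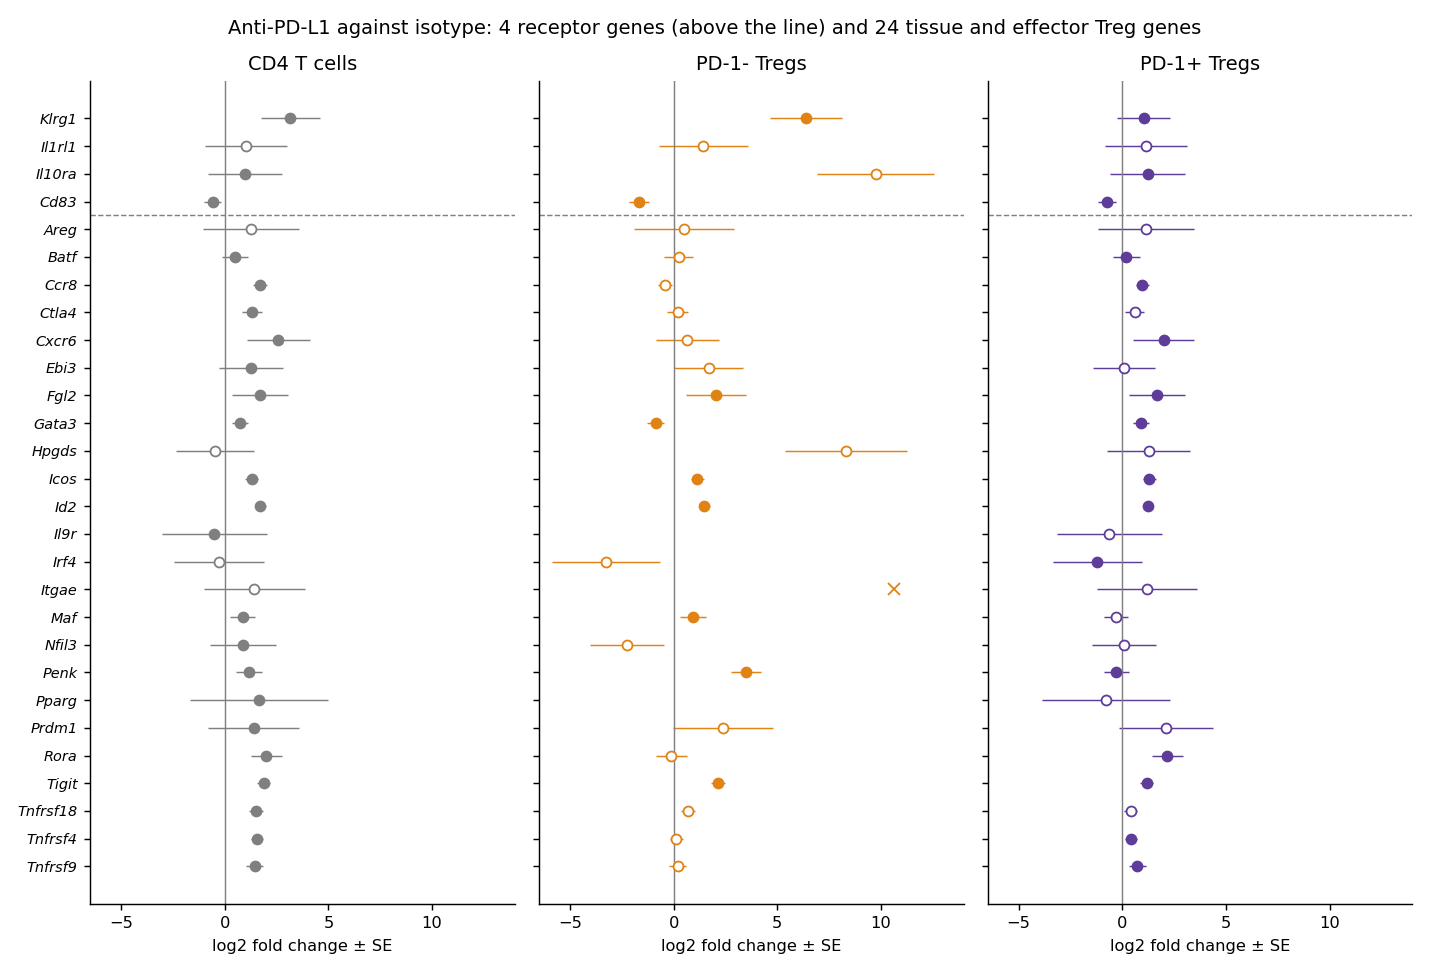
Log2 fold change ± SE of anti-PD-L1 against isotype (x axis) in each population for the 4 genes (above the dashed line) and 24 tissue and effector Treg genes (y axis), filled where the treated and isotype libraries did not overlap. A cross marks a change fitted against a group at 0, and genes at 0 in both groups have no point. Of the 24 points, 19 are filled to the right of 0 among CD4 T cells, with 6 among PD-1- Tregs and 11 among PD-1+ Tregs.

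Across the 14 libraries the 4 genes did not follow a common pattern. Klrg1 and Il10ra correlated at r = 0.78 (rho = 0.69) on log2 CPM with a prior count of 2, and every other pair lay between -0.15 and 0.28. These correlations are over libraries that share population, treatment and depth, and are descriptions. Among 8833 genes with a mean of at least 10 CPM, the 3 most like Klrg1 were Eea1, which encodes an endosome tether (r = 0.94, rho = 0.91), Gm6637 (0.94, 0.96) and Tigit (0.92, 0.85). Without the 2 libraries farthest from the median of Klrg1 they stayed at 0.91, 0.91 and 0.85. The nearest to Cd83 was the proteasome activator Psme2 (0.92, 0.89, and 0.90 without 2 libraries), followed by Gm5643 and Gm10052 (0.92 each). Srgap2, Ptpro and Rusc1 were nearest to Il10ra (0.98 each, rho 0.64, 0.76 and 0.78). Ints6, Nprl3 and Dst were nearest to Il1rl1 (0.91, 0.90 and 0.88), falling to 0.66, 0.70 and 0.58 without its 2 farthest libraries, the weakest of the 4 sets.

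The positions, from RefSeq on GRCm38.p6, are chr6:122270596-122282833 for Klrg1 (NCBI gene 50928), chr1:40404864-40465418 for Il1rl1 (17082), chr9:45253837-45269149 for Il10ra (16154) and chr13:43785112-43803133 for Cd83 (12522). In the GENCODE annotation (release M21) no exon of another gene shares bases with an exon of these 4. Its Il1rl1 model starts at 40429570, and the 24709 bases of the RefSeq span before or after it hold exons of 0 other genes. Il10ra holds the pseudogene Gm20612 and the microRNA gene Mir7086 within its span, with 0 exon bases shared, so that counting without strand would not mix them.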

How the data were processed

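RNA from sorted cells was sequenced after Smart-seq2 amplification, which has no molecular identifiers, so counting intervals and floors cover counting error only. The raw counts per gene and the RPKM values were both made and deposited by the authors. For upstream steps, mm10, HOMER 3.12, HISAT2 2.0.4, SAMtools and DESeq2 are listed per the submitters' processing notes, with no order or settings. From the counts, edgeR 4.0.16 (R 4.3.3; TMM scaling, filterByExpr with a minimum count of 10, robust quasi-likelihood test) was fitted once to the 6 group means of all 14 libraries. P-values were Benjamini-Hochberg adjusted over 13434 genes, with a threshold of 0.05. RPKM served to compare levels between genes. DESeq2 1.42.0, limma 3.58.1, other scalings and filters, and leaving out libraries were alternatives. The script was tested on simulated counts. The 4 genes and all lists were chosen with earlier results of these data known. Genes outside the lists were named where their log2 CPM correlated best with a member, 3 per member. Of each list, direct partners and genes past the threshold are named. Myd88, Ptpn6, Ptpn11, Cd86 and Fgl2 were added after their values were seen. The common biological coefficient of variation was 1.22, which limits the precision.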

Additional observations from a re-analysis of the deposited data

How the results depend on the processing

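Of the values for single genes under the alternatives, 876 kept their direction and side of the threshold, 63 passed it newly, 3 lost it and 37 turned in direction. The cause was not tested for any of them, except that leaving libraries out leaves fewer samples. The main test called 1 of the 4 genes in PD-1+ Tregs against CD4 T cells and 0 in every other comparison. Brackets after these counts give all genes called by the same fit. DESeq2 called 3 for treatment in PD-1- Tregs (2755), 3 averaged (1898) and 3 for PD-1+ against PD-1- Tregs (2963). Against CD4 T cells it called 2 for PD-1+ Tregs (741) and 2 for PD-1- Tregs (3134). For the difference in treatment change it called 1 between PD-1- Tregs and CD4 T cells (1804) and 2 between the Treg types (2166). Limma-voom called 1 for treatment of PD-1- Tregs (686), 1 for PD-1+ Tregs (149) and 1 averaged (353). It called 3 for PD-1+ against PD-1- Tregs (1332) and 1 for PD-1- Tregs against CD4 T cells (3352). Its quality weights called 1 for treatment in CD4 T cells (324) and 2 for PD-1+ Tregs against CD4 T cells (763). With no filter on low counts 1 was called for the averaged treatment (143) and 1 for PD-1+ against PD-1- Tregs (590). On log2(RPKM + 0.1) 1 was called for treatment in PD-1- Tregs (546) and 2 for PD-1+ against PD-1- Tregs (744). On log2(RPKM + 1) 2 were called for the latter (513). Fitting only the libraries compared called 2 for PD-1+ Tregs against CD4 T cells (152).

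Leaving out the number-3 libraries was an alternative chosen after seeing the data. It left 1 library in the treated PD-1- group, so calls of that fit are not counted here. Il10ra then turned to -3.38 in PD-1- Tregs, -0.54 averaged, -4.20 for PD-1- Tregs minus CD4 T cells and 4.32 for PD-1+ minus PD-1- Tregs, and Klrg1 to -0.16 for PD-1- Tregs minus CD4 T cells (all log2). These Il10ra values are fitted with the treated PD-1- group at 0 counts against 2 isotype counts, and measure no change.

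Leaving out 1 library at a time, the calls ran from 0 to 2 for treatment in PD-1- Tregs, 0 to 3 averaged, 0 to 3 for PD-1+ against PD-1- Tregs, 0 to 1 for PD-1+ Tregs against CD4 T cells and 0 to 2 for PD-1- Tregs against CD4 T cells. For the differences in treatment change they ran from 0 to 1 (PD-1- Tregs minus CD4 T cells) and 0 to 2 (PD-1+ minus PD-1- Tregs). A group left with 1 library is assumed to vary like the others, and where that library is at 0 or 2 counts (Il1rl1 and Il10ra in PD-1- Tregs) a fitted value is no measure of size. The log2 change of Il1rl1 then ran from -2.21 to 12.12 in PD-1- Tregs and -0.033 to 4.75 averaged, and its differences from -1.09 to 5.94 (PD-1+ against PD-1- Tregs), -0.16 to 2.15 (PD-1+ Tregs against CD4 T cells) and -4.43 to 1.57 (PD-1- Tregs against CD4 T cells). That of Il10ra ran from -3.35 to 13.12 in PD-1- Tregs and -0.39 to 5.09 averaged. The treatment change in PD-1- Tregs minus CD4 T cells ran from -3.21 to 11.13 for Il1rl1, -0.56 to 10.16 for Klrg1 and -4.34 to 12.16 for Il10ra. In PD-1+ Tregs minus CD4 T cells it ran from -1.15 to 3.47 for Il1rl1, -0.094 to 0.64 for Il10ra and -0.31 to 0.028 for Cd83, and in PD-1+ minus PD-1- Tregs from -11.00 to 3.33 for Il1rl1 and -11.93 to 4.54 for Il10ra.

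Il1rl1 in PD-1- Tregs against CD4 T cells also turned to -1.36 in limma-voom, -1.29 with quality weights and -0.53 on log2(RPKM + 0.1), and its treatment change in PD-1+ minus PD-1- Tregs to 0.38 on log2(RPKM + 1). The numbers in the titles were not taken to pair the libraries, since no label says what they mark. Deviations of 31 same-number pairs correlated at -0.033 to 0.074 (median 0.0040). By the bracketed number within treatment 13 pairs ran from 0.0020 to 0.035 (median 0.016). For 20 other pairs of the same treatment the range was -0.033 to 0.017 (median -0.0084). Of 14 libraries 12 correlated best with their own bracketed number, though in the smaller groups the deviations mirror each other. The 3 number-3 libraries share Y-linked transcripts. These are hints from the data and not the design. Whether libraries of the same number come from the same mice is not known. With the title number as a replicate block Il1rl1 stood at -0.64 in PD-1- Tregs against CD4 T cells, -0.40 for PD-1- Tregs minus CD4 T cells and 1.47 for PD-1+ minus PD-1- Tregs, and with the bracketed number as a block at -0.78 in the first of these. Neither replicate block changed a call of the 4 genes, and the title block moved the genes called from 358 to 146 for treatment in PD-1- Tregs, from 165 to 29 averaged and from 575 to 173 for PD-1+ against PD-1- Tregs.

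Counts of all genes called moved more than those of the 4. For treatment in PD-1- Tregs DESeq2 called 2755 and limma-voom 686 against 358, and averaged 1898 and 353 against 165. For PD-1+ Tregs against CD4 T cells DESeq2 called 741 against 47. Groups hold 2 or 3 libraries, the PD-1- Treg libraries detect the fewest genes, and a gene read at 0 there cannot be told apart from one not captured.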
